A study of Mus musculus with 2 samples.

Results

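The 9 genes described here are Pax7, Myf5, Myod1, Myog, Myf6, Msc, Six4, Mymk and Chodl. The first 8 act on the path from muscle stem cell to fused fibre, and Chodl is a membrane protein gene of muscle listed with them. They were taken by gene symbol, with earlier results of these arrays known, and each had 1 probe set of its own among the 19938 genes with a probe set annotated to a single symbol. None of these 9 probe sets was shared with another gene. Expression was measured in injured right tibialis anterior muscle of Mef2a -/- mice and of Mef2a +/+ (wild type) mice, all of the strain background given as 129Sv/C57BL6, 2 to 4 months old and of both sexes. Every muscle of both genotypes had received 50 µl of 10 µM cardiotoxin, a snake venom peptide that kills muscle fibres, and was taken on day 7 of regeneration. Total RNA of 5 mice per genotype was pooled and read on 1 array, so each value below is 1 measurement of a pool and has no replicate error, no interval and no test. How far a pool of other mice would differ was not tested.

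Skeletal muscle is rebuilt by satellite cells, stem cells that lie against the fibre. After injury they leave rest, divide as myoblasts, stop dividing and fuse into new fibres. The steps are driven by the myogenic basic helix-loop-helix factors MYF5, MYOD1, MYOG and MYF6, which bind E-box sequences together with E proteins, and MEF2 proteins act with these factors on many of the same genes. The comparison asks how these genes stand in regenerating muscle of mice labelled Mef2a knockout, set against wild type.

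Values are log2 RMA values, and a difference is the knockout-labelled value minus the wild type value on that scale. RMA is a method that corrects background, equalises the distributions of the arrays and combines the probes of a probe set. A gene was called measurable where the higher of its values reached 4.39, the median of all values in the table, which left 11787 genes. The robust SD of their differences was 0.28 and their median 0.03. The pools are also written KO, for the pool labelled Mef2a knockout, and WT. Mef2a itself read 9.06 in the labelled knockout pool and 8.92 in the wild type pool. The labels do not give the deleted part of the gene, so this probe set does not check the genotype, and the direction of each difference rests on the labels. All 22 listed genes of the differentiated fibre, among them those of fast myosins and of skeletal actin, were measurable in both pools.

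Differences among the 9 genes were small for the myogenic factors and larger for a repressor, a surface protein and a homeobox factor. In the labelled knockout pool, 7 of the 9 were lower and 2 higher, with a median of -0.22, where 44.5% of the measurable genes were lower by any amount and their median was 0.03. Of the 9, 2 were at least 1.5-fold lower (Chodl and Msc) and 0 were at least 1.5-fold higher. Among measurable genes 1.90% were at least 1.5-fold lower and 6.45% at least 1.5-fold higher. At 2-fold, 0 of the 9 passed in either direction, beside 0.187% of measurable genes lower and 1.70% higher. In 6 of the 9 genes (Pax7, Myf5, Myod1, Myog, Myf6 and Mymk) the difference was smaller in size than the robust SD of all measurable genes. Since earlier results were known when the genes were picked, their share past 1.5-fold is a description.

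**Figure D1:**
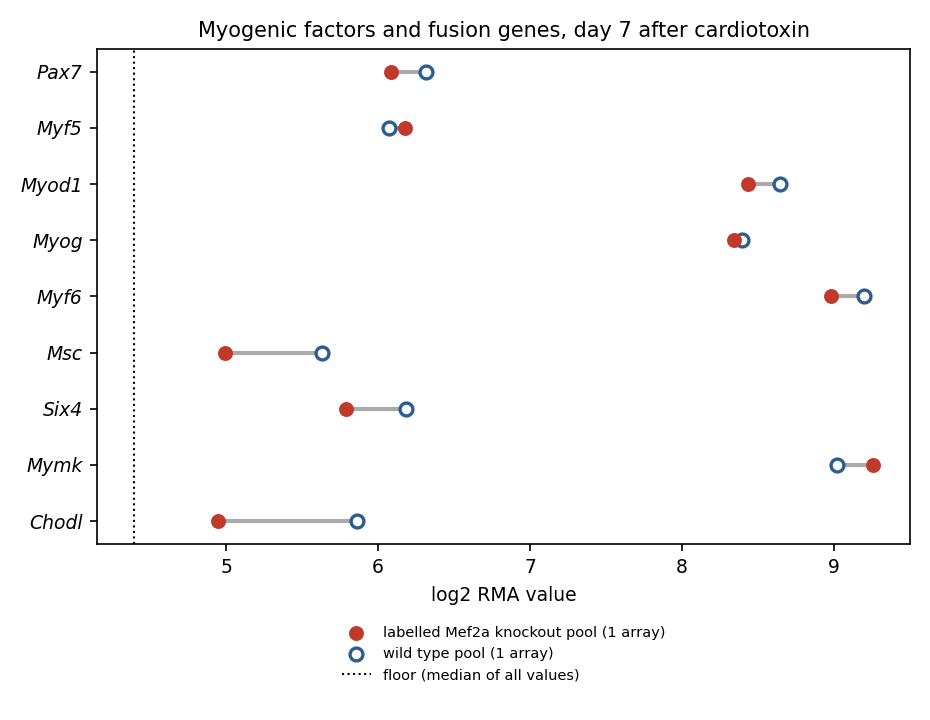
Log2 RMA values (x axis) of the 9 genes (rows) in the labelled Mef2a knockout pool (filled) and the wild type pool (open), 1 array each, with the floor of 4.39 dotted. Chodl has the widest gap, at 4.95 in KO against 5.86 in WT, and Myog nearly overlaps, at 8.34 in KO against 8.40 in WT.

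In bulk muscle RNA, fewer cells of a type and less RNA per cell cannot be told apart. Marker genes of other cells differed between the 2 pools too. All 24 listed macrophage markers were higher in the labelled knockout pool, 21 of them at least 1.5-fold (87.5%, beside 6.45% of all measurable genes). Their median was 1.03, and their summed linear level was 14381 in KO against 6159 in WT. The largest were Msr1 (2.11), Gpnmb (1.96), Itgam (1.80) and Cd14 (1.61), and no marker was below the floor. Listed genes of the differentiated fibre were lower in 21 of 22, with a median of -0.19 and a summed linear level of 54200 in KO against 60916 in WT. The part of either shift in the values below was not tested.

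Pax7 encodes the paired box factor that marks satellite cells and keeps their pool. It read 6.08 in the labelled knockout pool and 6.31 in the wild type pool, a difference of -0.23 or 1.17-fold lower. Among measurable genes, 17.1% had a difference as low or lower. Satellite cell genes as a list went both ways. Of 22 listed, Pax7 and Myf5 included, 19 were measurable. Of these, 9 were lower and 10 higher, with a median of 0.00 and none past 1.5-fold. Between the other settings tried this median ran from -0.03 to 0.00, and it was 0.19 relative to the fibre genes. Cxcr4, a chemokine receptor also carried by immune cells, was higher by 0.45, and Fgfr1 and Sdc3, a growth factor receptor and a heparan sulphate proteoglycan, were higher by 0.35 and 0.30. Fgfr4, another receptor for fibroblast growth factors, differed by -0.34. Cdh15, the M-cadherin gene, which was named after its value was seen, read 6.36 in KO against 6.58 in WT and so differed by about as much as Pax7. Pax3, the paralogue of Pax7 and also named after its values were seen, was below the floor in both pools, at 3.12 in KO and 3.23 in WT.

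The 4 myogenic basic helix-loop-helix genes all lay within 0.22 of equality, and 3 of them were lower in the labelled knockout pool. Myf5, the earliest of them in the embryo and a gene of satellite cells and myoblasts, read 6.18 in the labelled knockout pool and 6.07 in the wild type pool, a difference of 0.10. Myod1, which commits myoblasts to the muscle fate, read 8.44 in KO against 8.64 in WT, a difference of -0.21. Myog, which drives terminal differentiation, read 8.34 in KO against 8.40 in WT, a difference of -0.06. It was the closest to equality of the 9. Myf6, also called MRF4 and used by maturing fibres, read 8.98 in KO against 9.20 in WT, a difference of -0.22 and 1.16-fold lower. Myf5 and Myf6 are neighbours on chromosome 10, with 0 other genes between them in the RefSeq table used here, and their differences had opposite signs.

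The promoter of Myog is shown because MEF2 and E-box sites in it are textbook examples of how MEF2 proteins control a myogenic factor, and that of Chodl because Chodl differed most. Both are RefSeq windows of build GRCm38.p6, running from 250 bases before the annotated start to 50 after it, on the + strand, written 5′ to 3′. Capitals mark E-boxes, searched as CANNTG (a pattern that reads the same on both strands), and the MEF2 core, searched as TANNNNTA with each N limited to A or T (also the same on both strands).
Myog, chr1:134289754-134290053: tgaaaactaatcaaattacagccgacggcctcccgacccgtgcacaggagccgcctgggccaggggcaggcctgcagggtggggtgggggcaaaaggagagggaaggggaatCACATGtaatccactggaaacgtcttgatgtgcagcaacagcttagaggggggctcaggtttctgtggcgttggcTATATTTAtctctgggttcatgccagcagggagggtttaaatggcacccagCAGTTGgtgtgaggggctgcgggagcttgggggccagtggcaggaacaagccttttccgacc
Chodl, chr16:78930698-78930997: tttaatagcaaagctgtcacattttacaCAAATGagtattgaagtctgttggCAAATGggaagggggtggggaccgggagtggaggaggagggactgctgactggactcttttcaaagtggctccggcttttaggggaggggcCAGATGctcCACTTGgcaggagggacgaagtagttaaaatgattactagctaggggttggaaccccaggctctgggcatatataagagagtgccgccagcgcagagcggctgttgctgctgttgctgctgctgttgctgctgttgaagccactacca

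The Myog window held 2 E-boxes, CACATG from position -138 and CAGTTG from position -12, and 1 MEF2 core, TATATTTA from position -63, counted from the annotated start. The Chodl window held 4 E-boxes, from positions -222, -198, -107 and -98, and no match to the MEF2 core. Of 32851 RefSeq windows of the same length, 72.3% held an E-box, 39.6% held 2 or more and 6.49% held 4 or more. The MEF2 core was in 9.32% of windows. It is close to the TATA box in its letters and can match one. No E-box was found to overlap the core. Of the 9 genes, 5 matched the promoter table used here (not Myod1, Myf6, Msc and Mymk). The windows of Pax7 and Myf5 and both windows of Six4 held neither pattern. Such a match is a run of letters and not evidence of binding. With the core in the window of 1 gene only, Myog, whether the core goes with the differences was not tested.

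**Figure D2:**
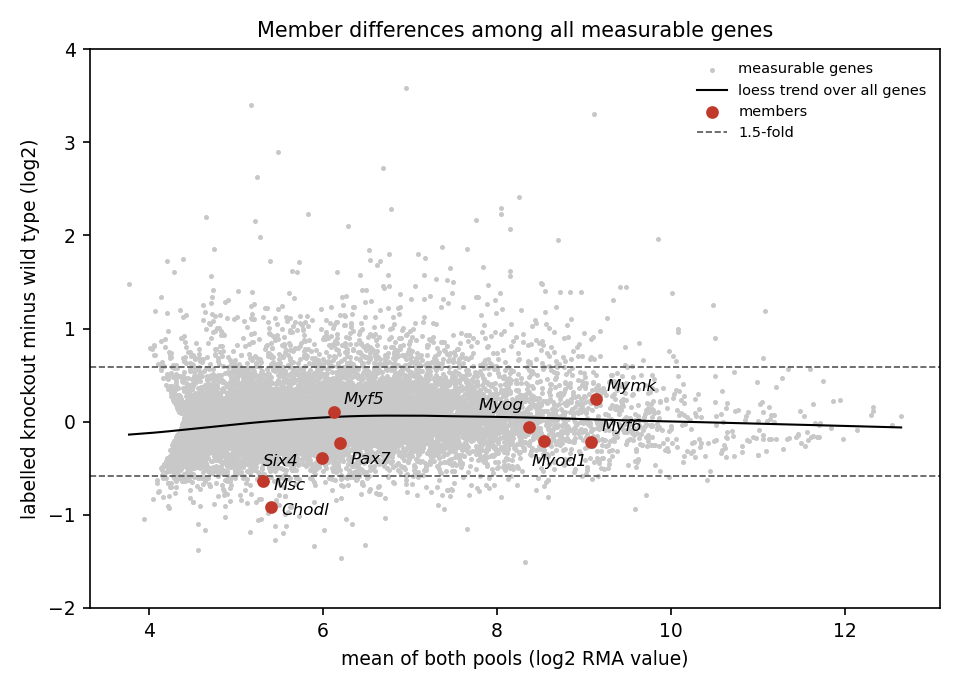
Difference (y axis, log2, labelled knockout minus wild type) against the mean of both pools (x axis, log2 RMA value) for the 11787 measurable genes (grey), the 9 described genes (red) and the loess trend (line), with dashed lines at 1.5-fold. Chodl and Msc lie below the lower dashed line at means under 6, and the myogenic factors lie close to the trend.

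The E proteins are partners with which the myogenic factors bind DNA. They read slightly higher in the labelled knockout pool, as Myf5 did, while Myod1, Myog and Myf6 read lower. Tcf12 read 7.69 in the labelled knockout pool and 7.50 in the wild type pool, a difference of 0.19. Tcf4 and Tcf3 differed by 0.11 and 0.04, and none of the 3 reached 1.5-fold. All 3 differences were smaller in size than the robust SD of 0.28, and that of Tcf3 was -0.03 with the loess trend removed.

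Msc, also called MyoR, encodes a basic helix-loop-helix repressor that competes with the myogenic factors at E-boxes. It read 4.99 in the labelled knockout pool and 5.63 in the wild type pool, a difference of -0.64 or 1.56-fold lower. Of the measurable genes, 144 (1.22%) had a difference as low or lower. Both values were low. Low RMA values tend to understate differences, and the error of such readings, in either direction, is not known here.

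Of the other inhibitors of the myogenic factors, more were higher than lower, as among all 11787 measurable genes (6288 higher and 5245 lower). Of 19 listed, Msc included, 18 were measurable, 4 of them lower, 12 higher and 2 equal, with 2 at least 1.5-fold lower and 3 past that limit upwards (11.1% and 16.7%, beside 1.90% and 6.45% of all measurable genes), and the median was 0.05. Id2, an inhibitor that binds E proteins without binding DNA, read 7.37 in KO against 6.24 in WT and was 2.19-fold higher. Bhlhe40, a repressor of the DEC family, was 1.74-fold higher, and Snai1, a zinc finger repressor that occupies E-boxes, was 1.56-fold higher. Sim2, the other gene past 1.5-fold lower and named after its value was seen, read 5.57 in KO against 6.19 in WT. Id2 and Bhlhe40 are also expressed by immune cells, and the 24 macrophage markers had a median of 1.03 in the same RNA. Their part in these values was not tested. Id1 and Id3, named after their values were seen, differed by 0.00 and 0.11.

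Six4 encodes a homeodomain factor that activates Myog and other muscle genes. It read 5.79 in the labelled knockout pool and 6.18 in the wild type pool, a difference of -0.39 or 1.31-fold lower, and 6.86% of measurable genes had a difference as low or lower. Among its family members, Six5 read 5.09 in KO against 4.97 in WT (0.12) and Six3 4.20 in KO against 4.45 in WT (-0.25), its knockout value being below the floor. Six2 (4.22 in KO against 4.28 in WT) and Six6 (2.97 in KO against 3.10 in WT) were below the floor in both pools. EYA proteins are coactivators of these homeobox factors. Eya1 differed by -0.34, about as Six4 did. Eya2 differed by 0.42, its wild type value of 4.10 lying under the floor. Over the 8 measurable genes of its family and of the Eya and Dach families the median was -0.13, 5 being lower and 3 higher, and none passed 1.5-fold. This median was 0.06 relative to the fibre genes.

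Among factors that work beside the myogenic factors, Mef2c, the MEF2 gene activated during differentiation, read 9.80 in the labelled knockout pool and 9.88 in the wild type pool, and Mef2d 7.86 in KO against 7.90 in WT. Of 15 measurable MEF2 and cofactor genes, 12 were lower and 3 higher, with a median of -0.08, or 0.11 relative to the fibre genes. Among all measurable genes 44.5% were lower. The 1 gene at least 1.5-fold lower (6.67%, beside 1.90% of all measurable genes) was Lbx1, a homeobox gene of migrating muscle precursors. Lbx1 was 1.52-fold lower (-0.61). Smyd1, a muscle methyltransferase, differed by -0.30, Pitx3, a homeobox factor, by -0.24 and Ankrd2, a stretch-responsive ankyrin repeat protein, by -0.23.

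**Figure D3:**
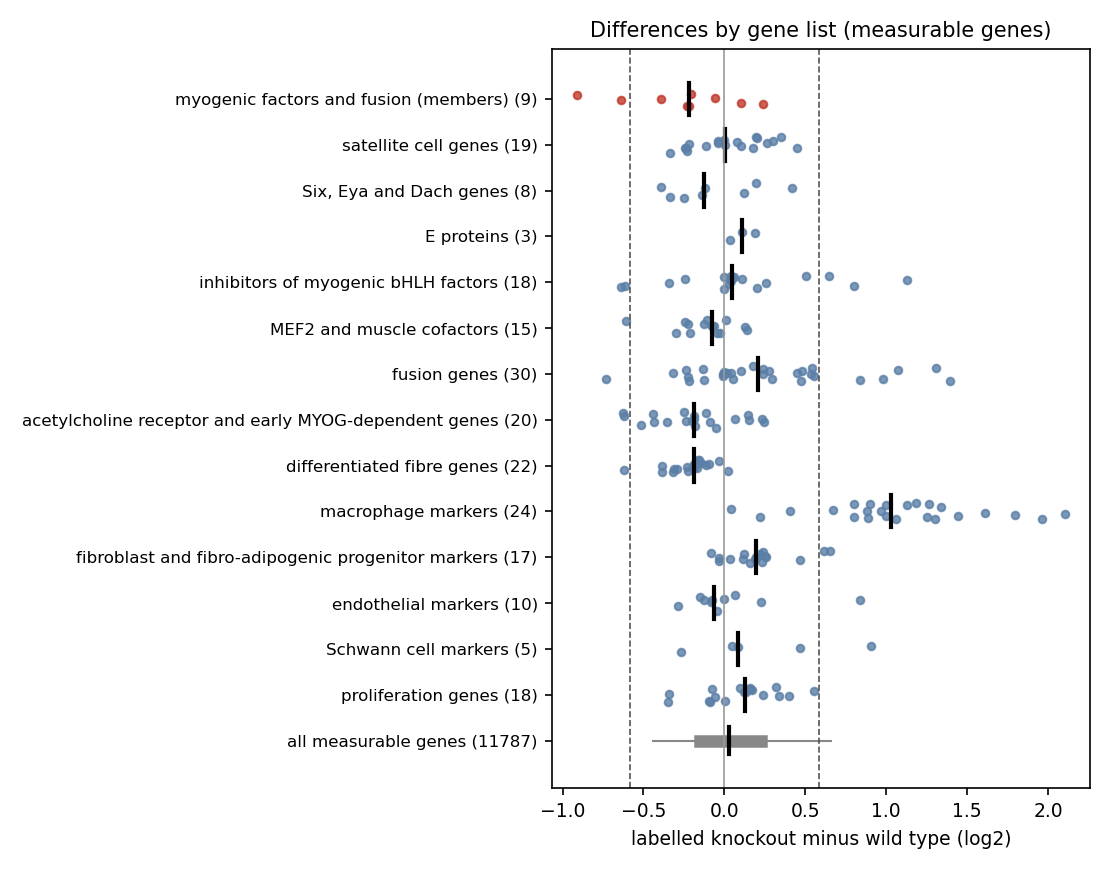
Differences (x axis, log2, labelled knockout minus wild type) of measurable genes in each list (rows, number of genes in parentheses), 1 point per gene, with the median as a black bar and dashed lines at 1.5-fold. The bottom row gives all 11787 measurable genes (thick bar, middle 50%; thin line, 5th to 95th percentile). The 9 described genes centre on -0.22, the fibre genes on -0.19 and the macrophage markers on 1.03.

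Mymk encodes myomaker, a membrane protein of myoblasts that is needed for their fusion. It read 9.26 in the labelled knockout pool and 9.02 in the wild type pool, a difference of 0.24 or 1.18-fold higher. Of the 9 genes it had the highest difference, and 23.7% of measurable genes had one as high or higher. Mymx encodes the small protein myomixer, which completes fusion together with myomaker. It read 5.79 in KO against 5.92 in WT, a difference of -0.13, 0.37 below that of Mymk. Relative to the fibre genes Mymx stood at 0.06, the same sign as Mymk.

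In the wider fusion list more genes were higher than lower, as among all 11787 measurable genes (6288 higher and 5245 lower). Of 36 listed genes, Mymk and Mymx included, 30 were measurable, 20 of them higher, 9 lower and 1 equal, with a median of 0.21. Past 1.5-fold, 5 (16.7%) were higher and 1 (3.33%) was lower, beside 6.45% and 1.90% of all measurable genes. Without a floor, over all 36, the median was 0.05. Cd9, a tetraspanin that restrains fusion in some cells, read 9.66 in KO against 8.27 in WT and was 2.63-fold higher. Myof, which encodes myoferlin, a membrane repair and fusion protein of myoblasts, was 2.48-fold higher. Dock5, an activator of RAC1, was 2.10-fold and Cd44, a hyaluronan receptor, 1.98-fold higher. Il4ra, the receptor chain for interleukin 4, which was named after its value was seen, was higher by 0.84.

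Cd9, Cd44 and Il4ra are also genes of macrophages, whose 24 listed markers were all higher in the labelled knockout pool. The part of these cells in the fusion list was not tested. Cav3, the caveolin of muscle membranes and named after its value was seen, was the fusion gene past 1.5-fold lower, at 7.06 in KO against 7.79 in WT. Tmem182, a muscle membrane protein that limits fusion, was also named after its value was seen and read 9.80 in KO against 10.12 in WT.

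**Figure D4:**
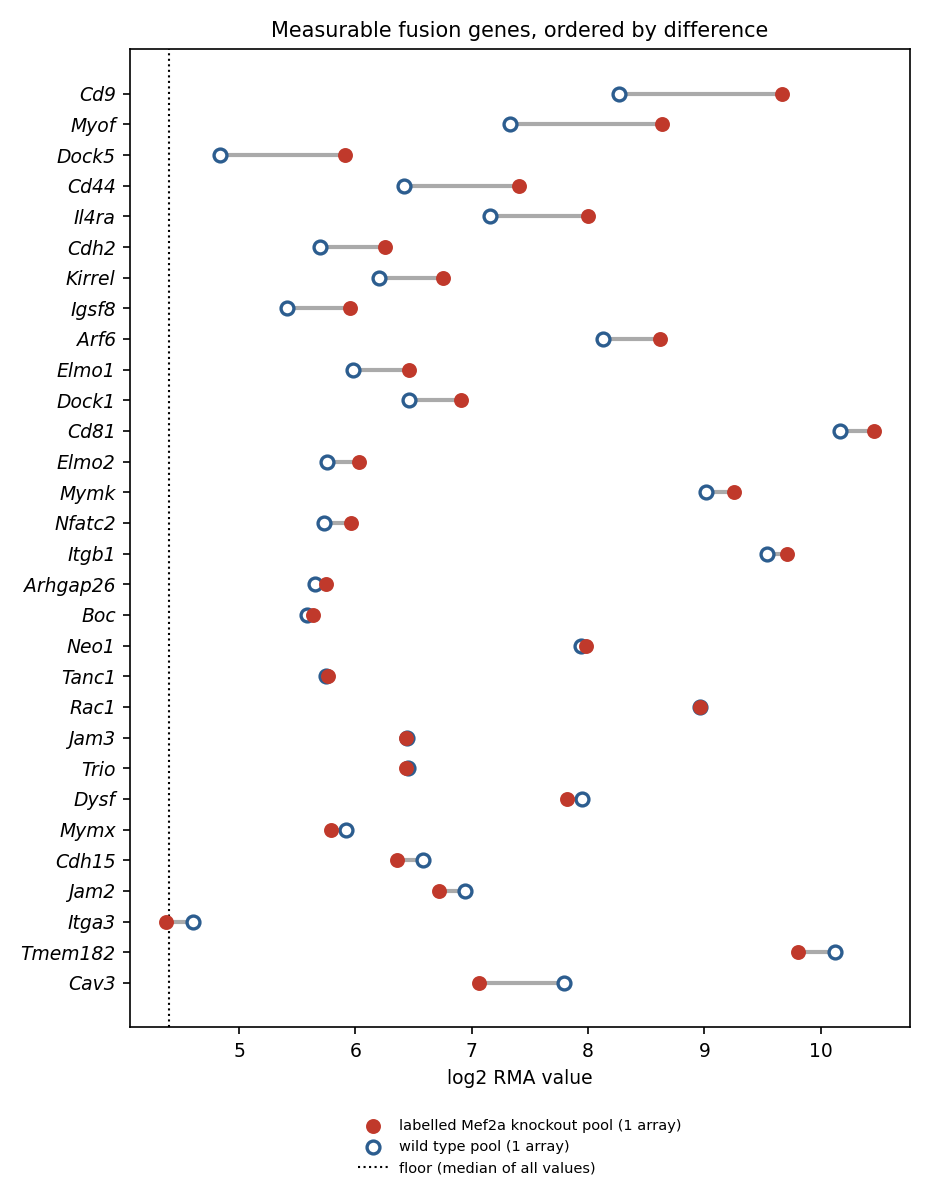
Log2 RMA values (x axis) of the 30 measurable fusion genes (rows, ordered from the highest to the lowest difference) in the labelled Mef2a knockout pool (filled) and the wild type pool (open), 1 array each, with the floor dotted. Cd9, at 9.66 in KO against 8.27 in WT, heads the order, Mymk sits in its middle and Cav3, at 7.06 in KO against 7.79 in WT, ends it.

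Chodl encodes chondrolectin, a membrane protein with a C-type lectin domain that is found in muscle and in motor neurons. It read 4.95 in the labelled knockout pool and 5.86 in the wild type pool, a difference of -0.91 or 1.88-fold lower, the lowest of the 9. Of the measurable genes, 32 (0.271%) had a difference as low or lower. Its promoter window, printed beside that of Myog, is the one with 4 E-boxes. As for Msc, both values were low.

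Genes that follow the myogenic factors were read for their own direction. Of 20 acetylcholine receptor and early MYOG-dependent genes, all measurable, 15 were lower and 5 higher, with a median of -0.19. Among all measurable genes 44.5% were lower. The fibre genes had the same median to 2 decimals, but they share 4 members with this list (Mylpf, Tnnc2, Ckm and Ttn). The median of the early genes lies between the shared Mylpf and Tnnc2, so the match does not compare separate genes. In the list of early genes 2 were at least 1.5-fold lower (10.0%, beside 1.90% of all measurable genes). Myh8, the neonatal myosin gene, read 10.10 in KO against 10.73 in WT. Musk, the receptor kinase of the nerve-muscle synapse, read 6.65 in KO against 7.27 in WT. Chrne and Dok7, a receptor subunit and an adaptor of MuSK, differed by -0.52 and -0.44. The 5 receptor subunits, looked at after their values were seen, went both ways, 3 being lower and 2 higher. Chrng, the fetal gamma subunit, read 7.34 in KO against 7.11 in WT, while Chrne, the epsilon subunit that replaces it in the adult, read 5.60 in KO against 6.11 in WT. Chrna1, Chrnb1 and Chrnd differed by 0.15, -0.24 and -0.05.

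The 9 were set beside the range of the fibre genes. The 22 fibre genes had differences from -0.62 (Myh2, a fast myosin gene) to 0.02. Pax7, Myod1, Myog, Myf6 and Six4 lay within that range, Msc and Chodl below it, and Myf5 and Mymk above it. Its lower end rests on Myh2 alone. The next lowest fibre gene, Cacna1s at -0.39, lay level with Six4 to 2 decimals. Only Myf5 and Mymk had differences within the range of the macrophage markers, which ran from 0.04 to 2.11. Both lay near its low end, and 21 of the 24 markers were at least 1.5-fold higher. With the fibre median taken as 0, a scaling added after the values were seen, Pax7, Myod1 and Myf6 stood at -0.04, -0.02 and -0.03, Myog at 0.13, and Msc at -0.45, under 1.5-fold. Chodl stood at -0.73, and Mymk at 0.43. Under that scaling 6 of the 9 were lower, their median was -0.03, and 1 (Chodl) was at least 1.5-fold lower. The shares of all measurable genes given above are for values as deposited and do not apply to this scaling.

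**Figure D5:**
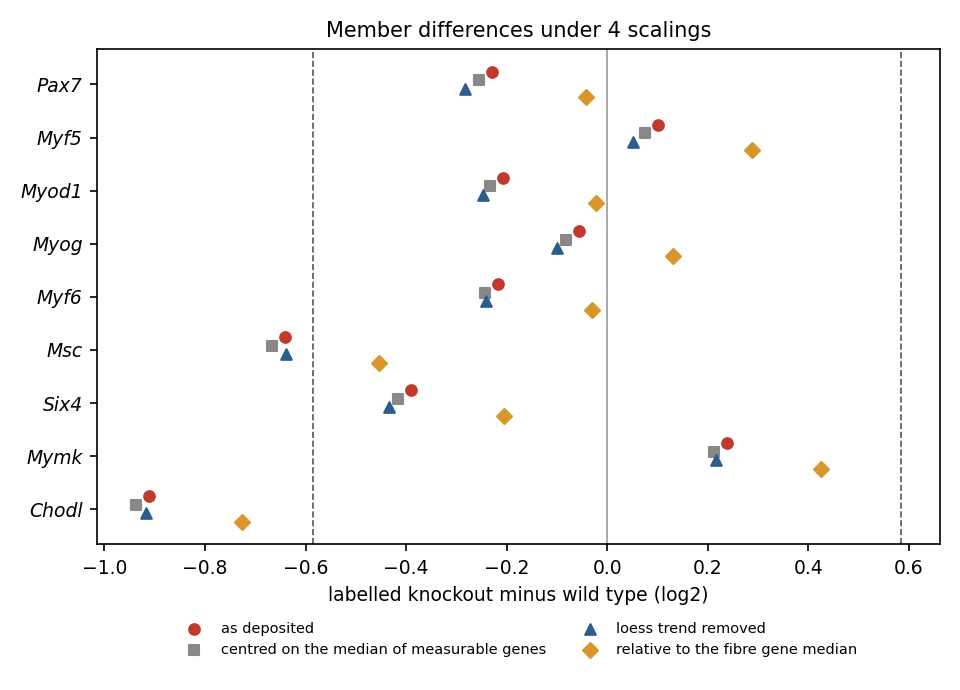
Differences (x axis, log2, labelled knockout minus wild type) of the 9 genes (rows) as deposited, centred on the median of measurable genes, with the loess trend removed and relative to the fibre gene median, with dashed lines at 1.5-fold. Chodl stays beyond the lower dashed line under all 4, Msc moves to -0.45 under the fibre scaling, and Myog changes sign there.

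Markers of other cell types differed less than those of macrophages. Fibroblast and fibro-adipogenic progenitor genes were higher in 14 of 17 (median 0.19), beside 6288 of all 11787 measurable genes. Fn1 and Mfap5 differed by 0.47 and 0.26. Pdgfrb and Thy1 were at least 1.5-fold higher (0.65 and 0.62), 11.8% of the 17 beside 6.45% of all measurable genes. The 10 endothelial genes had a median of -0.06, or 0.13 relative to the fibre genes, with Vwf 1.79-fold higher, Kdr at -0.29, Emcn at 0.23 and Esam at -0.15. Of the Schwann cell genes 5 were measurable (median 0.09), Egr2 being 1.87-fold higher, Mbp at 0.46, Ngfr at -0.27 and Pmp22 at 0.09. Proliferation genes, a sign of dividing cells of any kind, had a median of 0.13 over 18 measurable genes and none past 1.5-fold, with Mcm6 at 0.56, Mcm3 at 0.40, Mcm7 at -0.35 and Cdk1 at -0.34.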

How the data were processed

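The deposited table holds 1 log2 expression value per probe set and array, for 35557 probe sets, which, per the submitters' processing notes, the authors obtained from Affymetrix Expression Console by RMA. Program versions were not given in the sources used here. Per the labels' protocols, 1 array was run per genotype on pooled RNA. Once sorted, both columns agree to within 0.139, which hides any change common to most genes. Probe sets annotated to 1 symbol (21789) were used. The probe set with the highest mean stood for a gene, and 21698 of these probe sets matched the RefSeq gene table of GRCm38.p6. Values were used as deposited, and differences, counts past 1.5-fold and medians were computed in Python 3.11.15 with pandas 2.3.3, numpy 2.4.6 and statsmodels 0.14.6 (loess over all genes, span 0.3). The counting was tested on simulated data. With 1 array per genotype no test or p-value is given, and the number of arrays limits the precision.

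The 9 genes and the 13 other lists were chosen with earlier results of these data known. Genes named are the 9, the 3 MEF2 genes measured here, the SIX-family genes, the E proteins, Mymx and up to 4 measurable genes per list with the largest differences; any other gene is marked in the text as picked afterwards. Likeness of pattern cannot be measured over 2 arrays. Alternatives were median centring, removal of the loess trend, other probe set rules, floors and fold limits and, added after the values were seen, the fibre gene median as 0.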

Additional observations from a re-analysis of the deposited data

How the results depend on the processing

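The signs of 8 of the 9 differences held under median centring, removal of the loess trend, both other probe set rules and the fibre scaling. Myog was the exception, at -0.10 to 0.13. Ranges were -0.94 to -0.73 for Chodl, -0.67 to -0.45 for Msc, -0.43 to -0.20 for Six4 and 0.21 to 0.43 for Mymk. The 9 genes have 1 probe set each, so the probe set rules could not change them. The count of the 9 at least 1.5-fold lower, 2 as deposited, was 0 with the floor at the 75th percentile (6.18), which leaves 6 of the 9 and removes Myf5, Chodl and Msc by construction, 0 at a 2-fold limit, 3 at the lowest fold limit tried and 1 (Chodl) relative to the fibre genes. Over all genes, 224 were at least 1.5-fold lower and 22 at least 2-fold lower. These counts were 618 and 43 with no floor, and 94 and 10 with the higher floor, which test more and fewer genes. Shares of all measurable genes past a fold limit were computed only as deposited, at 1.5-fold and 2-fold. No paired analysis was possible because each genotype has 1 array. Signal near the floor limits Chodl and Msc most, since both had values under 6 in both pools.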

Other observations

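Of the 11787 measurable genes, 254 (2.15%) had exactly the same deposited value in both pools. Among the listed genes these were 4, named after their values were seen: Id1, Rac1, Snai2 and Tek. None of the 9 myogenic and fusion genes was among them (0 of 9).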
